A study of Mus musculus with 10 samples.

Results

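The Wnt ligands, their Frizzled receptors and Lrp co-receptors, and the secreted antagonists that bind ligand or co-receptor were examined in hearts of mouse embryos at E10.5, midway through gestation. Members were the genes whose array row named that gene alone and whose symbol was Wnt with a number, Fzd with a number, Sfrp1 to Sfrp5, Dkk1, Dkk2, Dkk4, Lrp5 or Lrp6. This gave 38 genes of the 19938 with a row of their own: 19 ligands, 10 Frizzled receptors, 2 co-receptors and 7 antagonists. Sfrp3 carried another symbol on the platform, Frzb, and was counted with the other pathway genes. The brightest row was taken for each gene, and Wnt4 was the only member with more than 1 row among the 39 rows that named a member.

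The hearts came from wild-type embryos (WT) and from embryos lacking the coxsackievirus and adenovirus receptor (CAR KO, gene Cxadr), a cell-cell adhesion protein of the developing heart. Embryos were bred from heterozygous parents of the line B6.Cg-Cxadr tm1/Fgr, in which the deletion is in the germline and so affects every cell of the embryo and not the myocardium alone. Each of the 5 samples per genotype pooled 3 hearts, or 15 hearts per genotype, and no embryo was treated. The labels do not say whether samples shared litters, so p-values measure the spread between these 10 pools only. Values are log2 signals of Affymetrix Mouse Gene 1.0 ST arrays, on which a difference of 1 is a 2-fold difference. Because whole hearts were measured, fewer cells of a type and less RNA per cell cannot be told apart.

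Wnt proteins are secreted, lipid-modified ligands that bind Frizzled receptors. With the co-receptors Lrp5 and Lrp6, this stabilizes β-catenin, which acts with TCF and LEF factors on target genes, and without them it can act on cell polarity and calcium. Dickkopf proteins such as Dkk1 block the co-receptors, and secreted Frizzled-related proteins bind Wnt ligands outside the cell. In the heart the pathway is known for its roles in progenitor expansion, cushion formation and the epicardium.

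The labels held for the targeted gene: Cxadr was at 8.38 ± 0.18 (SD, n = 5) in WT and 6.46 ± 0.17 in CAR KO samples, a log2 fold change of -1.91 (limma, adjusted p = 1.40e-05). It was the 1 row called among 28944 tested rows, or 0.00345%. Array medians lay between 7.65 and 7.73. A level of 6.51, the 95th percentile of 1210 odorant and vomeronasal receptor rows, served as the background level, since such receptors are not expected in heart. The Cxadr mean of the CAR KO samples was itself not above that level, and 3 of these samples were below it. With these 3 values raised to the background level, Cxadr was at least 3.53-fold lower in CAR KO. The cardiomyocyte list (Tnnt2, Actc1, Myh6 and others, 7 genes) had a mean of 13.15 to 13.38 in WT and 13.08 to 13.40 in CAR KO samples. The list of liver and yolk sac genes (Alb, Afp and others, 9 genes) spanned 7.80 to 10.17 in WT and 7.21 to 11.23 in CAR KO samples and was highest in CAR KO 5, WT 5, WT 2 and CAR KO 1. CAR KO 5 also had the lowest cardiomyocyte mean.

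Loss of CAR was not accompanied by a called change in any Wnt ligand, receptor, co-receptor or antagonist. In the limma fit over all tested rows, 0 of 38 members passed an adjusted p of 0.05 (0.00345% of all rows), and their smallest adjusted p was 0.99997. At an unadjusted p under 0.05 were 2 members, Wnt2b and Fzd6, or 5.26% of the members beside 2.40% of all rows. Both were lower in CAR KO, a direction that held 1.43% of all rows at that p, and 0 members were higher, beside 0.978%. By sign alone, 20 members were lower and 18 higher, beside 43.9% of all rows lower. The median log2 fold change was -0.0063 over the members and 0.011 over all rows. The genotypes overlapped in 38 of 38 members, and 0.359% of all rows had no overlap.

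Above the background level by mean were 35 members. Wnt1, Wnt8b and Sfrp4 were not, and for these a difference between genotypes cannot be read as a difference in transcript. Missing the threshold is no evidence of equal levels, and each 95% confidence interval was therefore read against a limit of 1.5-fold up or down. The interval stayed inside it for 32 members (84.2%, beside 97.3% of all rows), namely 17 ligands, 9 receptors, both co-receptors and 4 antagonists. The 6 members whose interval reached further were Wnt2, Wnt2b, Fzd7, Sfrp2, Dkk1 and Dkk2. Within 1.2-fold were 18 members (47.4%, beside 60.6% of all rows): 10 ligands, 6 receptors, both co-receptors and 0 antagonists. No adjustment for the many genes was applied to these intervals.

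**Figure D1:**
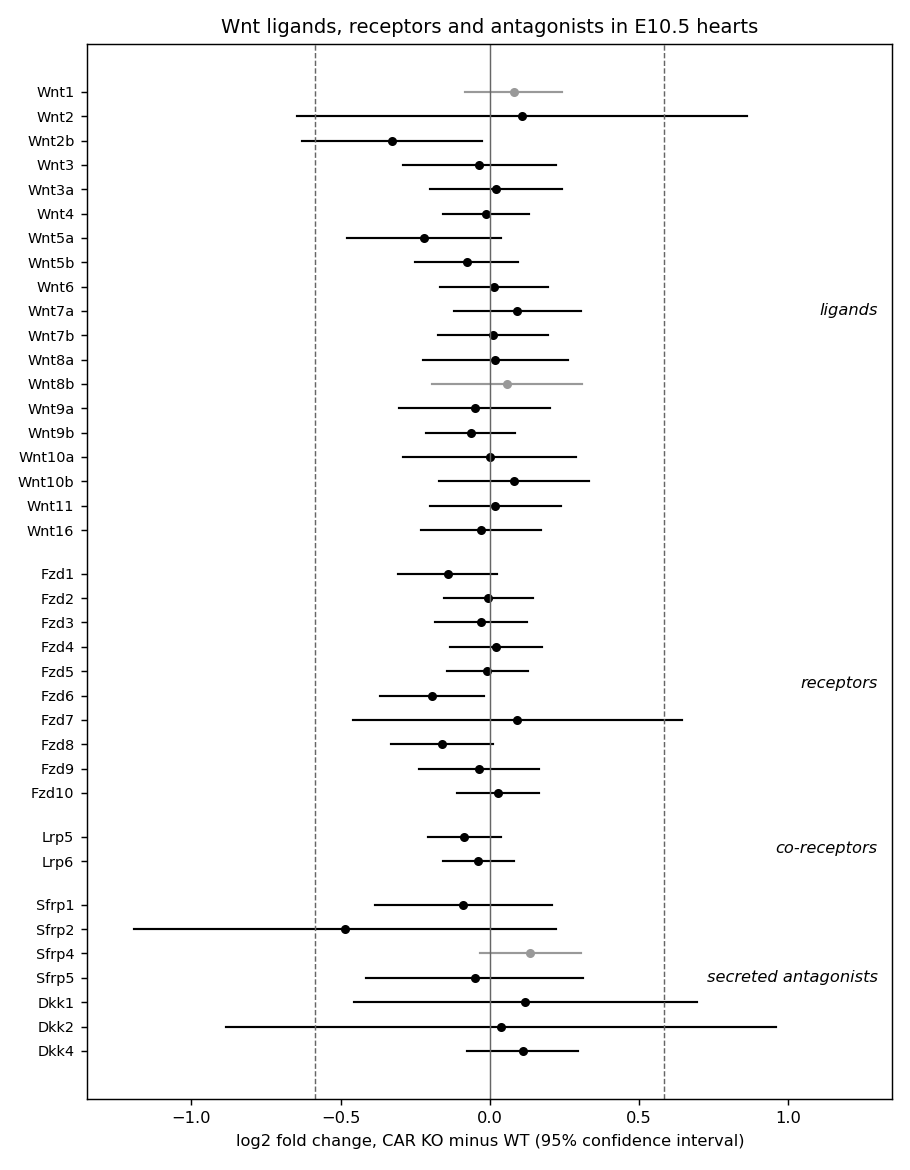
Difference between genotypes (log2 fold change, CAR KO against WT) of each member with the 95% confidence interval of the limma fit (n = 5 samples per genotype), grouped by class. Dashed lines mark 1.5-fold either way. The intervals of Wnt2b, Fzd7, Sfrp2 and Dkk1 cross one of them, and those of Wnt2 and Dkk2 cross both.

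Among the ligands, 17 of 19 were above background, 8 were lower and 11 higher in CAR KO by sign, and the median log2 fold change was 0.01. Wnt2b, on chromosome 3 (104944805 to 104961709, GRCm38.p6), acts through β-catenin. Its log2 signal in WT samples 1 to 5 was 8.17, 8.29, 8.10, 8.26 and 8.15, and in CAR KO samples 1 to 5 it was 7.91, 8.25, 7.94, 7.93 and 7.30. CAR KO 2 lay among the WT samples and the other CAR KO samples lay below all of them. CAR KO differed from WT by a log2 fold change of -0.33 (SE 0.14, 95% interval -0.63 to -0.03), with an unadjusted limma p of 0.0355 and a two-sided exact permutation p of 0.0317, where 0.00794 is the smallest that 5 against 5 samples allow. Its adjusted p in limma was 0.99997.

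Wnt2 on chromosome 6 (17985474 to 18032772), a ligand of the second heart field and its derivatives, had a wider range in CAR KO than in WT samples. The WT samples had log2 signals of 9.11, 8.97, 9.27, 9.33 and 9.15, and the CAR KO samples 8.44, 9.53, 9.95, 8.20 and 10.25. CAR KO 1 and 4 were below every WT sample and CAR KO 2, 3 and 5 above every WT sample. The SD was 0.14 in WT and 0.91 in CAR KO samples, while the log2 fold change was 0.11 (95% interval -0.65 to 0.86, exact permutation p = 0.778). A difference in mean of up to 1.82-fold therefore lies within the interval.

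Wnt5a, the ligand best known for signalling through cell polarity, had log2 signals of 9.86, 9.82, 9.93, 9.92 and 9.88 in WT samples. In CAR KO samples it was at 9.97, 9.67, 9.63, 9.83 and 9.20. CAR KO 1 was above every WT sample, CAR KO 4 was at the WT lower end, and the other 3 were below. The genotypes differed by a log2 fold change of -0.22 (95% interval -0.48 to 0.04, exact permutation p = 0.119).

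Wnt2, Wnt2b and Wnt5a were the 3 members (7.89%) with an SD among CAR KO samples over 4 times that among WT samples, a property of 2.15% of all rows. The opposite, an SD in WT over 4 times that in CAR KO, was found in 0 members and in 0.836% of all rows. With the threshold set aside, the CAR KO SD was the larger in 25 members (65.8%), close to the 61.1% of all rows. CAR KO 5 had the highest Wnt2 and the lowest Wnt2b and Wnt5a. For Wnt2b it was at 7.30 with the next CAR KO sample at 7.91, and for Wnt5a at 9.20 with the next at 9.63. The large CAR KO SDs of Wnt2b and Wnt5a thus leaned on this sample. No test of a difference in spread was made. The remaining ligands had smaller differences. Wnt4, known for its role in kidney and gonad, was at 8.71 ± 0.10 in WT and 8.70 ± 0.09 in CAR KO samples (log2 fold change -0.01, exact permutation p = 0.841). Its other row gave a log2 fold change of -0.11.

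**Figure D2:**
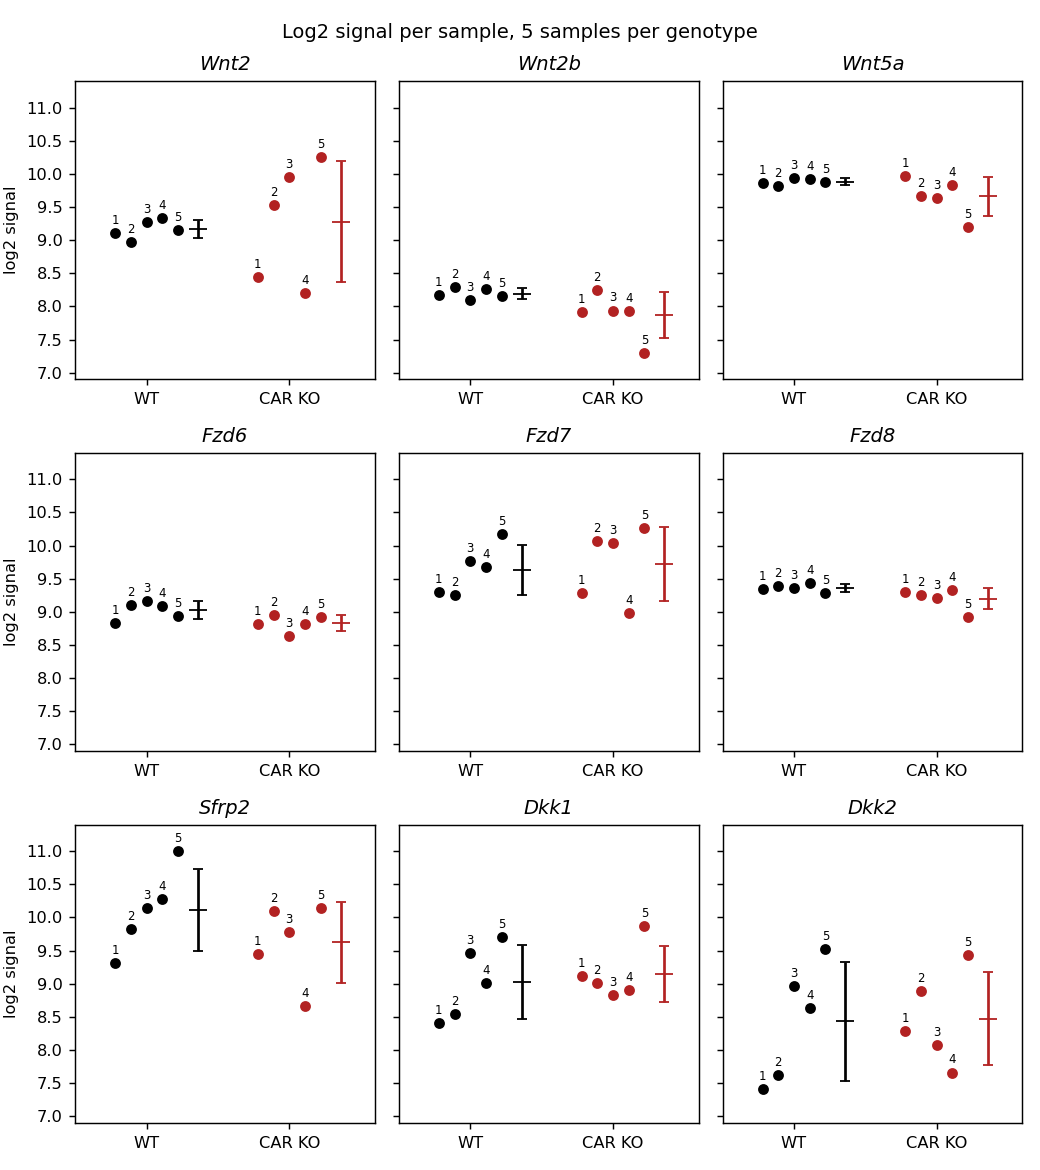
Log2 signal of members in each of the 5 WT and 5 CAR KO samples, with each genotype's mean ± SD beside its points. Wnt2 spreads from 8.20 to 10.25 in CAR KO and from 8.97 to 9.33 in WT samples, while Dkk1, Dkk2 and Sfrp2 spread widely in both genotypes.

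All 10 Frizzled receptors were above background. By sign 7 were lower and 3 higher in CAR KO, with a median log2 fold change of -0.02. Fzd6, a receptor with a known part in planar cell polarity, had log2 signals of 8.84, 9.10, 9.16, 9.09 and 8.94 in WT and 8.82, 8.95, 8.64, 8.82 and 8.92 in CAR KO samples. WT 1 and 5 lay within the CAR KO range and WT 2, 3 and 4 above it. The difference in mean was a log2 fold change of -0.19 (SE 0.08, 95% interval -0.37 to -0.02), with an unadjusted limma p of 0.0329 and an exact permutation p of 0.0556.

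Fzd8 was at 9.35, 9.39, 9.35, 9.44 and 9.29 in WT and at 9.31, 9.26, 9.20, 9.32 and 8.92 in CAR KO samples. CAR KO 1 and 4 overlapped WT 5, the lowest WT sample. The log2 fold change was -0.16 (95% interval -0.33 to 0.01), and the tests fell on opposite sides of 0.05 before adjustment, with 0.0618 in limma and 0.0238 in the exact permutation test. Fzd1 was at 10.63 ± 0.14 in WT and 10.49 ± 0.09 in CAR KO samples, a log2 fold change of -0.14 (exact permutation p = 0.0952). Fzd2 and Fzd4, with log2 fold changes of 0.00 and 0.02, were close to equal in mean.

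Fzd7, on chromosome 1 (59482147 to 59486955), is a receptor used in β-catenin signalling during early development and showed no such narrow range. Its log2 signals were 9.29, 9.26, 9.77, 9.68 and 10.17 in WT and 9.29, 10.06, 10.03, 8.98 and 10.26 in CAR KO samples. Both genotypes held low and high samples, and the log2 fold change was 0.09 (95% interval -0.46 to 0.64, exact permutation p = 0.754). The co-receptors were the steadiest class. Lrp5 was at 10.38 ± 0.04 in WT and 10.29 ± 0.09 in CAR KO samples (log2 fold change -0.09, exact permutation p = 0.0794), and Lrp6 at 10.57 ± 0.05 and 10.53 ± 0.07 (-0.04, exact permutation p = 0.365).

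Of the 7 antagonists, 6 were above background, 3 were lower and 4 higher in CAR KO by sign, and the median log2 fold change was 0.04. For Dkk1, Dkk2 and Fzd7, which ranged widely over the samples, the 250 bases before the annotated transcript start are given from RefSeq (GRCm38.p6), 5′ to 3′ on the gene's strand. Capitals mark a match to the TCF and LEF motif searched, CTTTGAA or CTTTGAT on either strand. The Dkk1 window is chr19:30549497-30549746 (minus strand) and the Fzd7 window chr1:59481897-59482146 (plus strand). For Dkk2 (plus strand) only the 224 bases outside the annotated gene are shown, chr3:132085042-132085265.
Dkk1: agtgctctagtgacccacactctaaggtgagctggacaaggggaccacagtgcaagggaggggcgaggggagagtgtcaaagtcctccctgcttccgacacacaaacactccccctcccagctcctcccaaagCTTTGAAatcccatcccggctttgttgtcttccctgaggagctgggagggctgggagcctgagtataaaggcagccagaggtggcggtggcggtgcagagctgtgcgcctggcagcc
Dkk2: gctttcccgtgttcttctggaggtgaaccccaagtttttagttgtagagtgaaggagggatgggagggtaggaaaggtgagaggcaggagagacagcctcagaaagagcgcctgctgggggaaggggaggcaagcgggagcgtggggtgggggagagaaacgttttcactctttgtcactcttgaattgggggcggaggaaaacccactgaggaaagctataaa
Fzd7: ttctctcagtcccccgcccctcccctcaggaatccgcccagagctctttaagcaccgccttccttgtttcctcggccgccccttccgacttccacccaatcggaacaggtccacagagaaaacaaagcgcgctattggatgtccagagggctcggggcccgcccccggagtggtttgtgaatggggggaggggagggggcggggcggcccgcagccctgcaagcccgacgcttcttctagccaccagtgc

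The Dkk1 window held 1 match, starting at position -117 from the transcript start, and the Dkk2 and Fzd7 windows held 0. Over the 28 windows found for 25 members the motif occurred in 3 (10.7%), those of Dkk1, Wnt5b and Wnt11, beside 2457 of 32851 windows of that length in all (7.48%). A match describes the letters in the window and not a bound site.

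Dkk1, a feedback inhibitor that binds the co-receptors, had log2 signals of 8.41, 8.54, 9.46, 9.01 and 9.71 in WT and 9.12, 9.01, 8.83, 8.91 and 9.86 in CAR KO samples. CAR KO 5 and WT 5 were highest, WT 1 and 2 lowest, and the log2 fold change was 0.12 (95% interval -0.46 to 0.69, exact permutation p = 0.714). Dkk2, its relative, had log2 signals of 7.42, 7.62, 8.97, 8.63 and 9.52 in WT and 8.29, 8.89, 8.07, 7.66 and 9.44 in CAR KO samples. These values spanned 4.29-fold within the series while the means differed by a log2 fold change of 0.04 (95% interval -0.89 to 0.96), so that up to a 1.95-fold difference lies within the interval.

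Sfrp2 had the widest range of any member, 5.04-fold between WT 5 and CAR KO 4. Its log2 signals were 9.32, 9.82, 10.15, 10.28 and 10.995 in WT and 9.44, 10.09, 9.77, 8.66 and 10.15 in CAR KO samples. WT 4 and 5 were above every CAR KO sample and CAR KO 4 below every WT sample. The log2 fold change of -0.49 was the largest of the members in size, with a 95% interval of -1.19 to 0.22 and an unadjusted limma p of 0.159. Sfrp1, which binds Wnt ligands and is abundant in embryonic heart, was at 12.84 ± 0.18 in WT and 12.75 ± 0.29 in CAR KO samples (log2 fold change -0.09). Sfrp4 was at 5.70 ± 0.15 and 5.83 ± 0.09, below the background level in each genotype.

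Over all 10 samples, 7 members (18.4%) had an SD above the 95th percentile of rows, which 5.00% of rows exceed: Wnt2, Wnt2b, Fzd7, Sfrp2, Sfrp5, Dkk1 and Dkk2. The SD of Dkk2 stood at the 99.7th percentile. Several of these varied together from sample to sample. Of 595 pairs among the 35 members above background, 13 passed an adjusted permutation p of 0.05 by Pearson correlation, 12 of them positive, and 0 did by Spearman correlation, where the smallest adjusted p was 0.0774. The samples share dissection and hybridization steps, and the pairs are not independent of each other.

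The pair Dkk1 and Dkk2 had r = 0.92 and rho = 0.93 over the 10 samples (permutation p = 0.00023 and adjusted p = 0.0456 for r, adjusted p = 0.0916 for rho). Without the 2 samples farthest from the median, r was 0.85. Dkk2 with Fzd7 and Dkk1 with Fzd7 had r = 0.83 and 0.67 (rho = 0.79 and 0.61), neither past adjustment (adjusted permutation p = 0.0913 and 0.183 for r). Fzd7 and Sfrp5, a secreted antagonist, had r = 0.93 and rho = 0.95 (adjusted permutation p = 0.0499 and 0.0774, r = 0.89 without the 2 farthest samples). Among Dkk1, Dkk2, Sfrp1, Sfrp2, Sfrp5 and Fzd7, a set put together after the values were seen, the 15 correlations ran from 0.60 to 0.93 with a median of 0.81, and 3 of them passed an adjusted permutation p of 0.05. Of the 10 pairs among Wnt3a, Wnt8a, Wnt9a, Wnt10a and Wnt10b, 3 passed as well. Wnt16 went the other way from Fzd7 (r = -0.92, rho = -0.88, adjusted permutation p = 0.0456 and 0.0940, r = -0.89 without the 2 farthest samples).

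**Figure D3:**
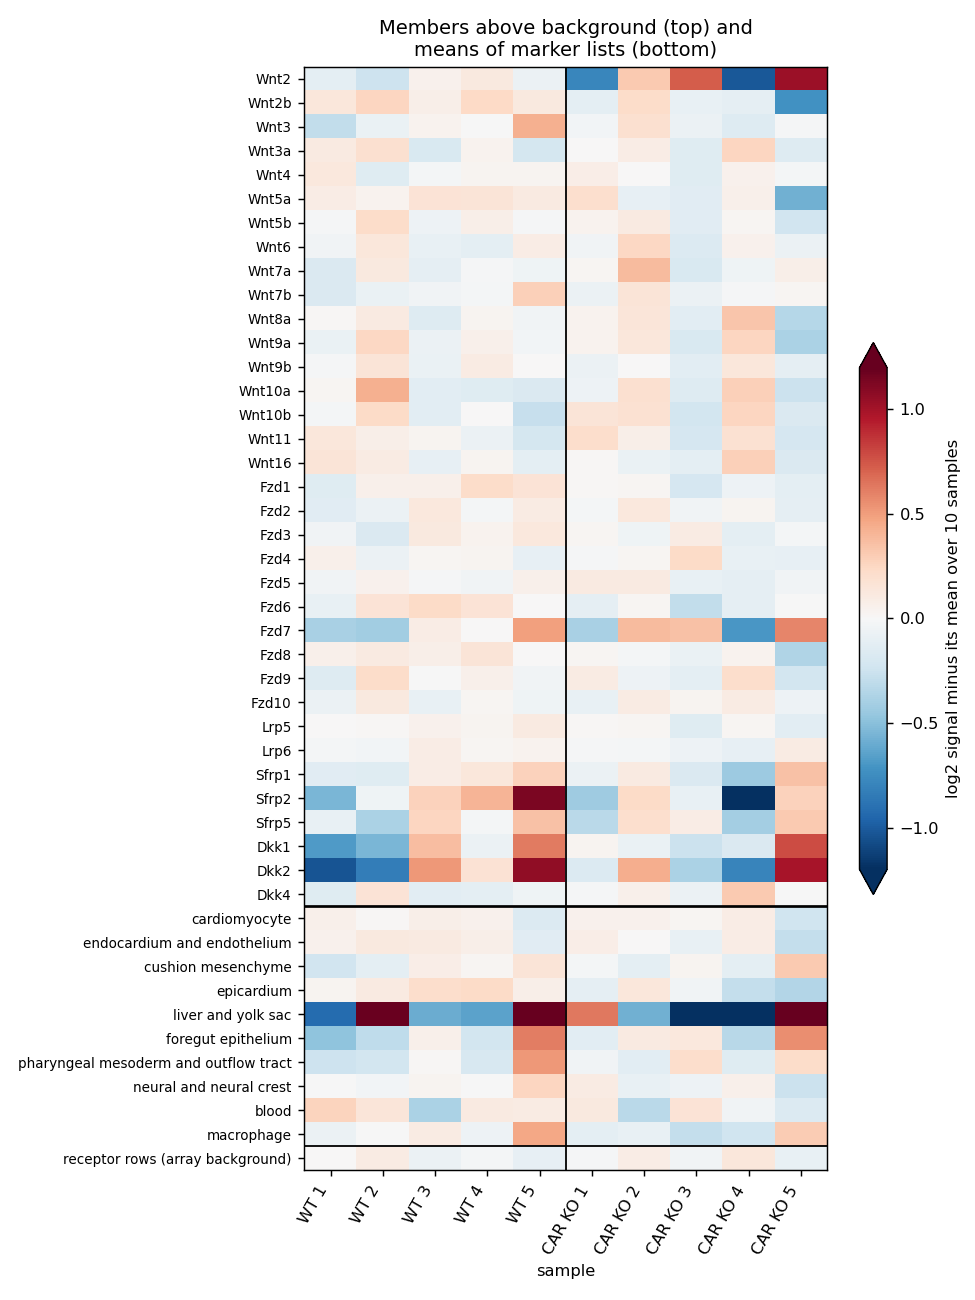
Each member's log2 signal minus its mean over the 10 samples, for the 35 members above background, with the same for the means of 10 marker lists and for the receptor rows underneath. Columns are samples by genotype, and colours saturate at the ends of the scale. WT 5 and CAR KO 5 are high for Dkk1, Dkk2, Sfrp1, Sfrp5 and Fzd7, and no class separates the genotypes.

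Correlations with marker genes of tissues in and around the heart were high for some of these members but did not pass adjustment. The hearts were dissected from embryos, and lists of marker genes for 10 tissues were set against the 35 members above background, 350 relations in all. Of these, 0 passed an adjusted permutation p of 0.05 by Pearson correlation over the 10 samples, and 4 shared the smallest, 0.0788. They were Dkk1 with the cushion mesenchyme list (r = 0.91, rho = 0.81), Dkk2 with the foregut list (r = 0.89, rho = 0.84), Fzd7 with the foregut list (r = 0.88, rho = 0.88) and Wnt2b with the epicardium list (r = 0.85, rho = 0.81). Without the 2 samples farthest from the median of the list, r was 0.79, 0.76, 0.84 and 0.76.

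With each genotype's mean taken off first, 18 of the 350 relations passed by Pearson correlation, 14 of them positive, and 1 by Spearman correlation, that of Wnt16 with the foregut list. The permutations ran freely over all 10 samples, although taking off the means ties the values within a genotype. These p-values can therefore be too small, and the 18 relations are described only. Dkk2 with the foregut list had r = 0.90 with the means taken off (adjusted permutation p = 0.0336). Dkk1 with cushion mesenchyme, Fzd7 with foregut and Sfrp2 with foregut had 0.91, 0.88 and 0.90 at the same adjusted p. The relations at that adjusted p were spread over further lists: Dkk1 with foregut (0.87), Dkk1 and Dkk2 with macrophage genes (0.88 and 0.83), Fzd8 and Wnt11 with endothelium (0.90 and 0.86) and Wnt3a with pharyngeal mesoderm (-0.83). Without the 2 farthest samples, r of the relations at that adjusted p was 0.635 (Dkk1 with macrophage genes) to 0.869 (Fzd7 with foregut) in size. The foregut list of 8 genes had a mean of 6.97 to 8.06 in WT and 7.12 to 8.01 in CAR KO samples. Foxa1, Epcam, Cldn6, Cdh1 and Sox2 carried this spread, each over a range above 1. The other 3, Nkx2-1, Shh and Foxa2, ranged over 0.45, 0.34 and 0.32, so the spread of the list was not shared by all of its genes. The cushion list (7 genes) lay at 10.76 to 11.14 in WT and 10.87 to 11.30 in CAR KO samples. Postn, Msx1 and Prrx1 carried its spread with ranges of 1.11, 1.04 and 2.08, while Tbx20, Vcan and Sox9 ranged over 0.25, 0.38 and 0.45. Sox9 was lower in CAR KO (log2 fold change -0.21, unadjusted limma p = 0.00809, exact permutation p = 0.0238) and was not called after adjustment. The Postn, Msx1 and Prrx1 log2 fold changes were -0.03, 0.28 and 0.22. Their part in the values of Dkk1, Dkk2, Sfrp2 and Fzd7 was not tested.

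The epicardium list correlated with Wnt2b and was lower in CAR KO by sign. Its 7 genes (Wt1, Tbx18, Tcf21 and others) had a mean of 10.40 to 10.60 in WT and 10.02 to 10.502 in CAR KO samples. All 7 were lower in CAR KO, beside 43.9% of all rows lower by sign, with a median log2 fold change of -0.22. Of these 4 were at an unadjusted limma p under 0.05, namely Tbx18 (-0.31), Upk3b (-0.46), Upk1b (-0.22) and Aldh1a2 (-0.57). Of all rows, 1.43% were lower in CAR KO at that p. None of the 7 genes was called after adjustment. CAR KO 2, the sample in which Wnt2b lay among the WT samples, also had the highest epicardial mean of the CAR KO samples, and CAR KO 5 had the lowest of both. With genotype means taken off, r between Wnt2b and the list was 0.75 and rho 0.61 (adjusted permutation p = 0.119 and 0.259), and r was 0.03 without the 2 farthest samples, so that within genotypes the relation rested on those samples. Without the 4 liver-rich samples the Wnt2b log2 fold change was -0.14 and its unadjusted limma p was not under 0.05. The part of the epicardial genes in the Wnt2b value was not tested.

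Several dim ligands correlated with the lowest signals of the array. After the values were seen, the members were also set against the mean of the odorant and vomeronasal receptor rows of each array, which ran from 4.77 to 5.00. Of 35 relations, 10 passed an adjusted permutation p of 0.05 by Pearson correlation, 8 of them positive. By Spearman correlation 11 passed, 6 of them positive, and 7 passed by both. Wnt3a, a β-catenin ligand, had r = 0.94 and rho = 0.96 (permutation p = 1e-05, the smallest that 100000 resamples give, and r = 0.87 without the 2 farthest samples). Wnt10a and Wnt10b had r = 0.94 and 0.90 (adjusted p = 0.00315 and 0.00455), and Lrp6 had -0.77 (adjusted p = 0.0423). For Wnt16, r was 0.76 and rho 0.83 (adjusted permutation p = 0.0442 and 0.0241), and r was 0.46 without the 2 farthest samples. The wide-ranging members ran the other way: Dkk1, Dkk2, Sfrp1, Sfrp2, Sfrp5 and Fzd7 had r of -0.73 to -0.66 with the receptor rows, none past adjustment by Pearson correlation. By Spearman correlation Sfrp5 (rho = -0.87), Fzd7 (-0.78) and Dkk2 (-0.77) did pass (adjusted permutation p = 0.0127, 0.0388 and 0.0395). The part of the array background in the correlations among these members and with the foregut list was not tested. For the dim ligands, a difference between samples and a shift of the array's lowest signals cannot be told apart. In the genotype comparison Wnt3a, Wnt10a and Wnt10b differed by log2 fold changes of 0.02, 0.00 and 0.08.

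**Figure D4:**
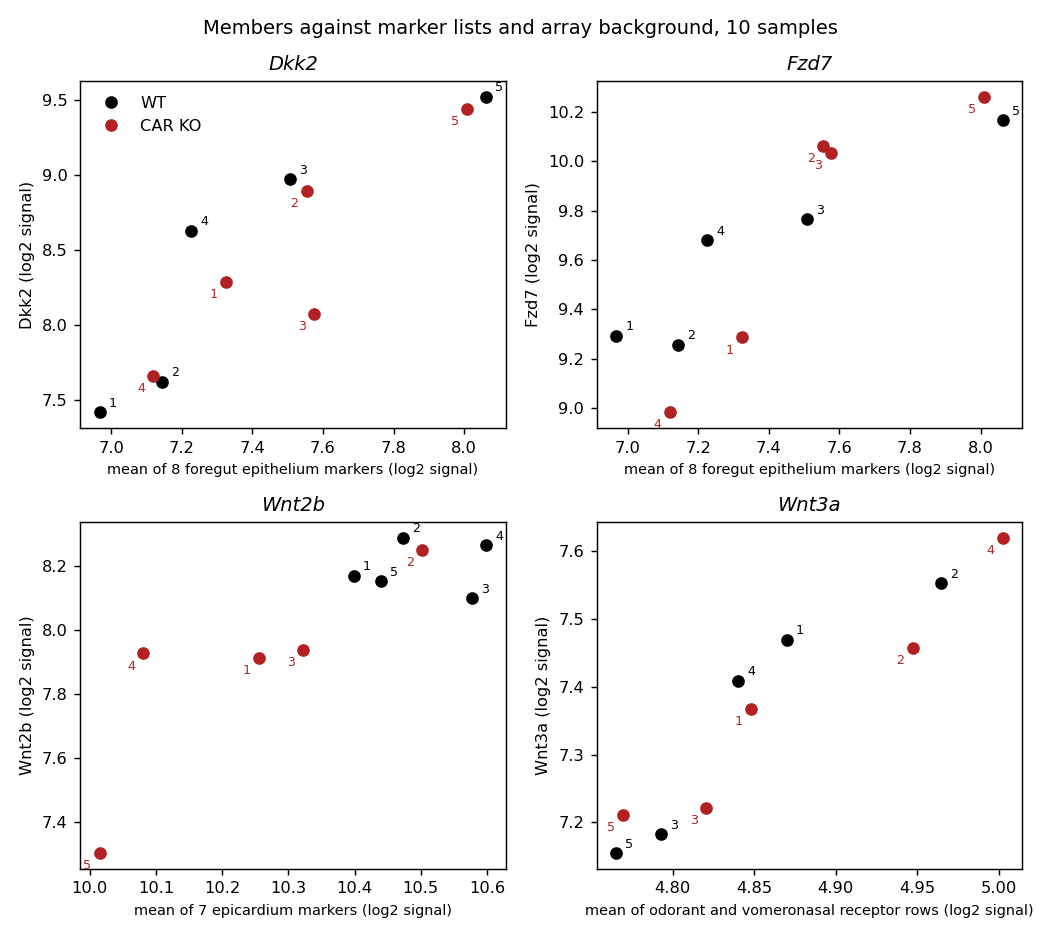
Log2 signal of Dkk2, Fzd7, Wnt2b and Wnt3a (vertical axes) against the mean log2 signal of the foregut list, the foregut list, the epicardium list and the receptor rows (horizontal axes) in each of the 10 samples, numbered, with WT in black and CAR KO in red. The points of each panel run upwards (r = 0.89, 0.88, 0.85 and 0.94), and 4 of the 5 CAR KO samples lie to the lower left of all WT samples for Wnt2b.

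In the lists of pathway genes no gene was called either. The lists held 74 genes, 73 of them above background, and the β-catenin targets among them included the member Dkk1. In limma 0 were called after adjustment, and 3 were at an unadjusted p under 0.05 (4.05%, beside 2.40% of all rows). By sign 51 of the 74 were lower and 23 higher, while 43.9% of all rows were lower. The median log2 fold change was -0.02, beside 0.011 over all rows. The interval lay within 1.5-fold for 69 genes and within 1.2-fold for 40, beside 97.3% and 60.6% of all rows.

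Of 26 other extracellular and membrane genes, Rspo1 and Cer1 were at an unadjusted p under 0.05. Rspo1, a secreted protein that amplifies Wnt signalling by sparing Frizzled receptors from turnover, was at 9.95, 10.08, 9.999, 10.13 and 10.34 in WT and 9.74, 9.85, 9.44, 9.16 and 9.96 in CAR KO samples. CAR KO 5 alone reached the WT range. The log2 fold change was -0.47 (SE 0.14, 95% interval -0.77 to -0.16), with an unadjusted limma p of 0.00593 and an exact permutation p of 0.0159, the largest decrease among the pathway genes, and it was not called after adjustment (limma, adjusted p = 0.99997). Cer1, a secreted antagonist, had a log2 fold change of 0.23 (exact permutation p = 0.0714) but lay at 5.02 to 5.64, below background. Gpc3 and Ryk, a glypican and a Wnt-binding receptor, had log2 fold changes of -0.02 and 0.03.

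The 24 cytoplasmic and nuclear genes all had intervals within 1.5-fold, and 0 were at an unadjusted p under 0.05 in limma. β-catenin itself (Ctnnb1) had a log2 fold change of -0.03, the kinase genes Csnk1a1 and Gsk3a had -0.02 and -0.09, and Dvl3, which relays the signal from Frizzled, had -0.11. The 14 planar cell polarity genes were likewise all within 1.5-fold with 0 at that p, and Rhoa, Rac1, Prickle1 and Prickle2 had log2 fold changes of -0.01, -0.01, -0.13 and -0.20.

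Among 15 genes known as β-catenin targets or feedback regulators, 1 was at an unadjusted p under 0.05. Ccnd1, the cell cycle gene for cyclin D1, was at 11.48, 11.63, 11.66, 11.55 and 11.62 in WT and 11.42, 11.45, 11.44, 11.49 and 11.36 in CAR KO samples, with overlap only between WT 1 and CAR KO 4. The log2 fold change was -0.15 (unadjusted limma p = 0.0151, exact permutation p = 0.0159). Axin2, the feedback gene most often read as a measure of β-catenin signalling, was at 9.22 ± 0.32 in WT and 9.23 ± 0.40 in CAR KO samples, a log2 fold change of 0.00 (95% interval -0.43 to 0.43). Lef1 was at 9.80 and 9.86, a log2 fold change of 0.05 (95% interval -0.09 to 0.20). Nkd2, an inhibitor of the pathway, and Bambi had -0.23 and -0.01, neither at an unadjusted p under 0.05.

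**Figure D5:**
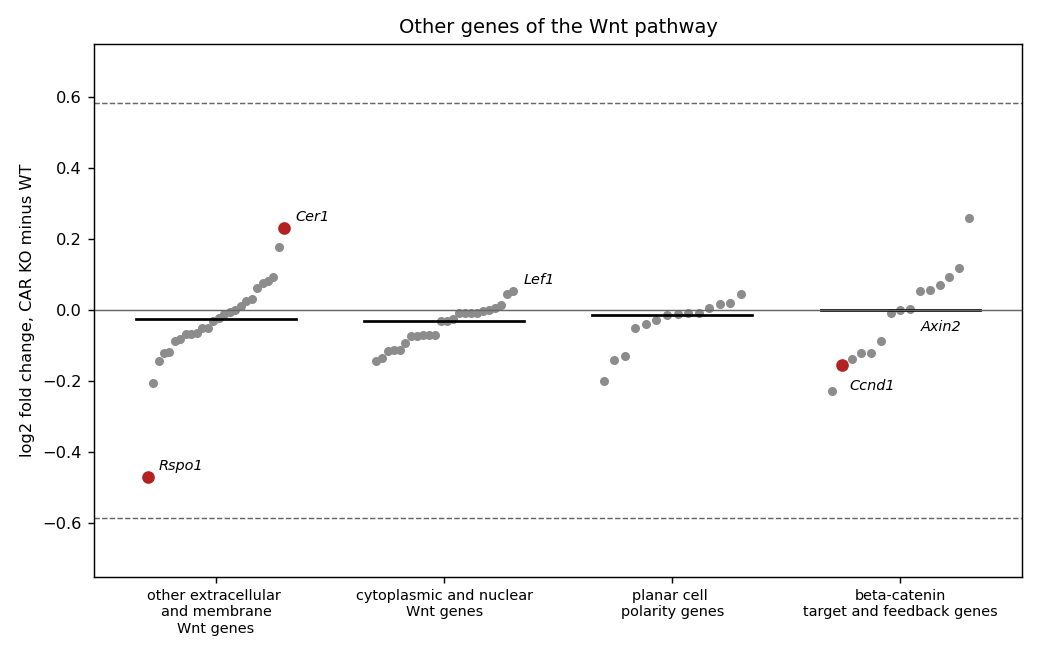
Difference between genotypes (log2 fold change, CAR KO against WT) of each gene in 4 lists of Wnt pathway genes, with a line at each list's median. Red points are the genes at an unadjusted limma p under 0.05 (Rspo1, Cer1 and Ccnd1), and dashed lines mark 1.5-fold either way.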

How the data were processed

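RNA of pooled embryonic hearts was hybridized to Affymetrix Mouse Gene 1.0 ST arrays, 1 array per sample. The log2 signals per transcript cluster were deposited by the authors; the submitters' processing notes name MAS5, and for summarization and normalization between arrays the sources used here state no method. The number of arrays, 5 per genotype, limits the precision.

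All 10 value columns were matched to a sample by the sample identifier. Of 35556 rows, 6612 control rows were left out and 28944 tested. The platform annotation named 1 gene for 21789 of these, several for 1621 and none for 5534. WT and CAR KO samples were compared with limma 3.58.1 (lmFit and eBayes, R 4.3.3) with no covariate, with Benjamini-Hochberg adjustment across every tested row. The exact permutation test of single genes and all correlations were two-sided, and correlations used 100000 resamples with adjustment within each family of 350, 35 or 595 relations. The fit was tested on simulated data.

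Named with values were the 3 brightest members of each class and the 2 with the smallest p, every member at an unadjusted p under 0.05 or with an interval past 1.5-fold, and by the same idea the 2 brightest and 2 lowest-p genes of each pathway list, with Axin2 and Lef1 always. Other members were named for their spread, correlations or motif after their values were seen. Tcf7, Wisp1 and Rock2 were not matched. The members and lists were chosen with earlier results of these data known. Alternatives were quantile normalization, median centring, a filter on dim rows, rows naming 1 gene, a trended prior, the methods' t-test, array weights, a replicate block, the mean of a gene's rows and leaving out samples.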

Additional observations from a re-analysis of the deposited data

Results flagged for a closer look

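For 1 of the 76 sets of 5 samples examined, a sample stood far from the other 4. Dkk1 in CAR KO 5, at a log2 signal of 9.86, was the highest of its genotype, and its gap to the next sample, CAR KO 1 at 9.12, made up 0.722 of the CAR KO range. Chance alone gives about 1 in 20 such sets, or 3.8 of 76. CAR KO 5 also had the highest cushion mesenchyme and liver means.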

How the results depend on the processing

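No member was called after adjustment under any of the 20 alternatives, and the smallest adjusted p of a member in limma was 0.775 (Wnt2b, array weights). Members at an unadjusted p under 0.05 numbered 2, but 1 after quantile normalization, 1 by the methods' t-test, 5 with array weights and 0 to 3 with a sample left out. There were 0 without WT 2 or WT 4, and 1 without WT 3 or CAR KO 3. With 1 sample left out, Wnt2b missed that p without WT 1, 2 or 4, and Fzd6 without WT 2, 3 or 4 or CAR KO 1, 3 or 4. Wnt2b also missed it by the methods' t-test and Fzd6 after quantile normalization. When the 4 liver-rich samples were dropped, both missed it, and Wnt5a and Wnt1, which is below background, were under it instead. Pathway genes at that p numbered 3, but 6 with array weights, 6 with the replicate block, 6 when the 4 liver-rich samples were dropped, and 2 to 5 with a sample left out (5 without CAR KO 2). Over all rows the count was 696, ranging from 411 without WT 4 to 1811 with array weights. Relations with marker lists numbered 0, and 18 with genotype means taken off, where the permutation p-values can be too small.

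The replicate block gave 3 members at an unadjusted p under 0.05 and 0 called, and the interval lay within 1.5-fold for 35 members in place of 32. It brought Fzd8, Prickle2, Nkd2 and Isl1 under that p. Deviations of same-numbered samples correlated at 0.07 to 0.56, all positive, and for 4 of 5 CAR KO samples the WT sample of equal number was the closest match, which hints at pairing. As number 4 was not over 0.1 and the labels do not say what a number marks, the samples were not taken as pairs. Log2 fold changes of the 34 named genes changed sign 53 times over the 20 alternatives, at most 8 times in one of them, and 0 times at an unadjusted p under 0.05. By gene, the log2 fold change ran from -0.42 to -0.14 for Wnt2b, -0.24 to -0.15 for Fzd6, -0.55 to -0.35 for Rspo1 and -0.69 to -0.25 for Sfrp2. Precision is limited by the number of arrays, and Wnt1, Wnt8b and Sfrp4 by signal at or below background.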
